A study of Mus musculus with 19 samples.

Results

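A set of 9 liver genes that make glucose or answer insulin was followed across 4 doses, control included, of the polycyclic aromatic hydrocarbon dibenz[a,h]anthracene (DB[a,h]A). They are Pck1, G6pc, Slc2a2, Igfbp1, Irs2, Foxo1, Ppargc1a, Pfkfb3 and Ldha, and they were measured by all non-control array probes whose RefSeq accession belongs to 1 of them. The rule gave 14 probes for 9 genes, out of 55681 probes and 20018 named genes on the array. The choice of genes did not use their measured values, but it was made with earlier results of these data known.

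The animals were males of the transgenic mouse strain 40.6, 10 weeks of age, and a part of the liver was taken 3 days after exposure. Controls (0 mg/kg) numbered 5, and there were 5 animals at 6.25 mg/kg, 4 at 12.5 mg/kg and 5 at 25 mg/kg, each measured separately on 1 array. All animals, controls included, carried the transgene of the strain, which the labels do not describe further. The labels give neither the hour at which livers were taken nor whether the animals had been fed. On each array liver RNA was labelled red and a reference RNA made from 11 mouse cell lines was labelled green, so each value is a log2 ratio of liver over that reference.

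Between meals the liver releases glucose made from smaller molecules (gluconeogenesis) and from glycogen, and insulin holds this release back after a meal. Insulin does so in part by keeping the transcription factor FOXO1 out of the nucleus, which lowers transcription of G6pc, Pck1, Igfbp1 and Irs2. Glucagon, acting through cAMP and the factor CREB, raises Pck1, G6pc and the coactivator Ppargc1a. Glycolysis runs the opposite way and is driven by fructose 2,6-bisphosphate, which the Pfkfb enzymes make and break down.

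The promoters of the 9 genes were searched on both strands for 3 short motifs known from insulin, cAMP and carbohydrate control. The 5 genes shown are Igfbp1, G6pc and Irs2, which held the insulin motif in the window searched, Pck1, which did not, and Pfkfb3. Letters farther than 250 bases from the start were not searched, so a motif there would be missed. The motifs were the core of the insulin response element that FOXO proteins bind (CAAAACA), the core of the cAMP response element (TGACGT) and the E-box (CACGTG), and no motif overlapped one of another kind. Sequences are the 250 bases before the start of the gene, 5′ to 3′ on the strand of the gene, from RefSeq on GRCm38.p6, and capitals mark the motifs. All 9 genes matched an entry, with 11 start sites. The windows are chr11:7197537-7197786 on the plus strand for Igfbp1 and chr11:101367466-101367715 on the plus strand for G6pc. They are chr8:11008930-11009179 on the minus strand for Irs2 and chr2:173152823-173153072 on the plus strand for Pck1. The 2 start sites of Pfkfb3 are at chr2:11553930-11554179 and chr2:11502091-11502340, both on the minus strand.
Igfbp1: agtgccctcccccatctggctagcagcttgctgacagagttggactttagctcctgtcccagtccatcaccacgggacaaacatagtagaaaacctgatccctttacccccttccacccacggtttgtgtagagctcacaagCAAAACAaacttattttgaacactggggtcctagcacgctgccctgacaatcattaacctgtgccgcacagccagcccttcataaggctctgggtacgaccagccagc
G6pc: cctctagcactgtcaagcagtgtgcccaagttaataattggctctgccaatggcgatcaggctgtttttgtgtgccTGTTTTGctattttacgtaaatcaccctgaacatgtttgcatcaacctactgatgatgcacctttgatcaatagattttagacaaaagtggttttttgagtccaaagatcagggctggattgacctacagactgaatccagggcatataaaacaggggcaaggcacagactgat
Irs2: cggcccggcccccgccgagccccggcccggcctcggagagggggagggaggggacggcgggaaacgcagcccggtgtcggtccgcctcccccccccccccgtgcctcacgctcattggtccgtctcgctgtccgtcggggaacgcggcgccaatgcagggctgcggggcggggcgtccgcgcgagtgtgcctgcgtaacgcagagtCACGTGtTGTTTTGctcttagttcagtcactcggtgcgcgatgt
Pck1: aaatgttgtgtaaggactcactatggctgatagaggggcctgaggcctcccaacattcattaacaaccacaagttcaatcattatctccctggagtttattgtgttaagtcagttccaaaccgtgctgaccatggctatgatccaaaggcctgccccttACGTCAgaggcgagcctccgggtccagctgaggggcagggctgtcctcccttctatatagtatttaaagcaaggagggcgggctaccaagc
Pfkfb3 start 1: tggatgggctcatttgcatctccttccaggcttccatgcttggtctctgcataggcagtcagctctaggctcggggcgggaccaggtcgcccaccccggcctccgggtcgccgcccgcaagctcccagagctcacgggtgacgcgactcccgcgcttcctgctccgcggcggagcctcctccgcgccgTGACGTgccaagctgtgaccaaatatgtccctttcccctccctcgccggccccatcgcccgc
Pfkfb3 start 2: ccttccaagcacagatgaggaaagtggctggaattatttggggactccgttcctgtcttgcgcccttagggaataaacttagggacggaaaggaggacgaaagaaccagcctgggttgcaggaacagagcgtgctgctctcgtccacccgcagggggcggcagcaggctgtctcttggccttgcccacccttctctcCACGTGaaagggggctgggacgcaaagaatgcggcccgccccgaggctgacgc
The insulin response core lay 108 to 102 bases before the start of Igfbp1 on its own strand. On the opposite strand, where it reads TGTTTTG, it lay 174 to 168 bases before the start of G6pc and 37 to 31 bases before that of Irs2. An E-box stood next to it in Irs2, 44 to 39 bases before the start. The cAMP core lay 91 to 86 bases before the start of Pck1 on the opposite strand, and 62 to 57 bases before the first start of Pfkfb3. An E-box lay 53 to 48 bases before the second start of Pfkfb3. The cAMP core was also present in Ppargc1a and Ldha and the E-box in Ldha, while none of these letters stood in this window of Foxo1 or Slc2a2. The insulin response core was found in 5.56% of 32851 promoters of the same length, the cAMP core in 6.47% and the E-box in 6.02%. A match is a description of letters and not a site shown to be bound.

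Between 35.5 and 56.7% of the spots of an array had liver signal well above background, and between 55.8 and 75.4% had such a reference signal. The filter on liver signal (well above background on at least 4 arrays) kept 13 of the 14 probes and 29415 of all 55681. Pfkfb3 probe 2 was left out, with liver signal above background on 3 of 19 arrays, 0 of them controls. It passed in no comparison of the fit without this filter. Where a gene had several probes, probe 1 is the brightest. No spot of the 14 probes was saturated. Liver signal of Ppargc1a probe 2 was above background on 8 arrays and that of the other 12 probes on all 19. Reference signal was above background on 8 arrays for Igfbp1 and on 2 for Slc2a2, so the level of these ratios rests on a dim denominator. Arrays lay on 3 slides, each with all 4 dose groups, and slide 1 was scanned 7 days after the others, per the file headers. Values with slide as a block in the fit are therefore given beside those without it. All 8 hepatocyte markers (Alb, Apob, Ttr and others) were measured, with a mean log2 ratio per array of 6.71 to 8.48 at 25 mg/kg and 6.89 to 8.59 in controls. Of 5 adipocyte markers 3 were measured (Plin1, Cidec and Lep), and Adipoq and Retn were not. Those 3 had a mean log2 ratio of 0.25 to 0.83 at 25 mg/kg and 0.09 to 0.86 in controls. Of 6 pancreatic acinar markers 3 were measured (Cela1, Ctrb1 and Amy2a5), and Pnlip, Cela3b and Cpa1 were not. The measured acinar markers had a mean log2 ratio of 1.91 to 2.47 at 25 mg/kg and 2.02 to 2.83 in controls. In a piece of whole liver, fewer cells of a type and less RNA per cell cannot be told apart.

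The members that stood farthest from control at 25 mg/kg were Pfkfb3, which was higher, and Igfbp1, which was lower. None of the 13 measured probes passed an adjusted p under 0.05 in limma at any dose, with or without the slide block. The share of all 29415 probes that passed at 25 mg/kg was 0.0578% without the block and 0.809% with it. Of the 13 probes 7 were higher and 6 lower at 25 mg/kg. Their median log2 change was 0.05, against -0.02 over all probes. Before adjustment 4 of the 13, Pfkfb3, Igfbp1, Foxo1 probe 1 and Ldha probe 1, had p under 0.05, as had 7.37% of all probes. With the block 7 of the 13 reached it, and 14.6% of all probes. They were Pfkfb3, Igfbp1, Foxo1 probe 1, Slc2a2 and every probe of Ldha. The Ldha probes are repeat measures of the same gene on the same arrays.

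**Figure D1:**
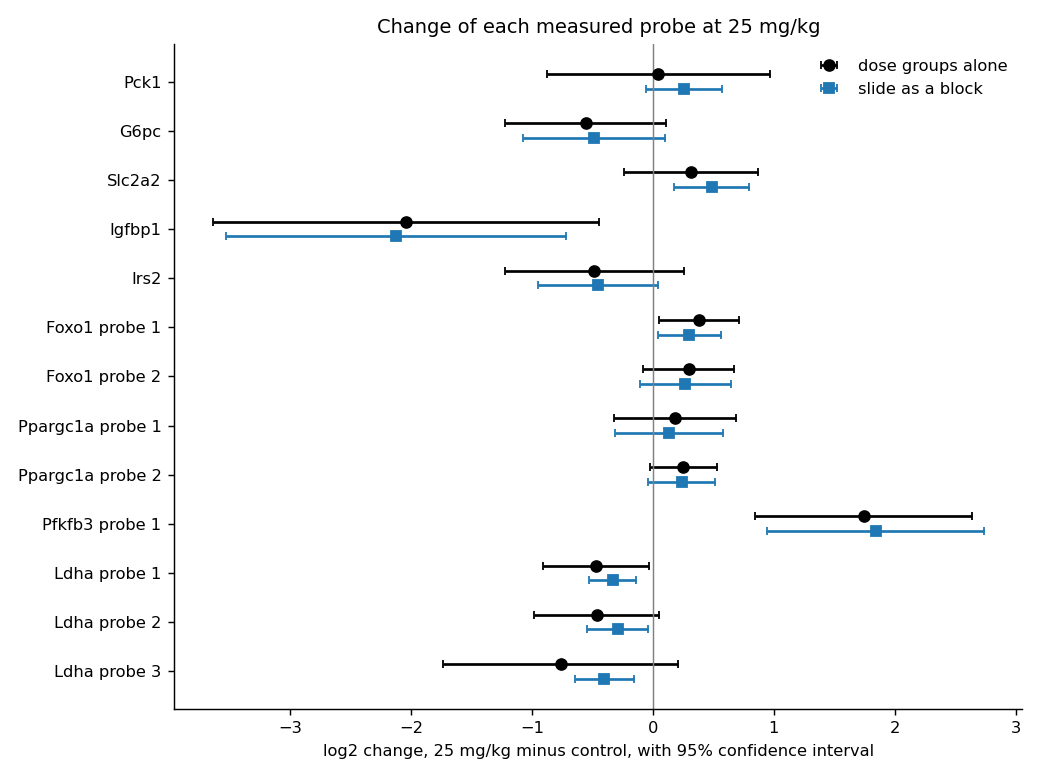
Log2 change at 25 mg/kg minus control for the 13 measured probes (x axis), 1 line per probe, with 95% confidence intervals from limma over 19 arrays. Black circles come from the fit on dose groups alone and blue squares from the slide-blocked fit. Pfkfb3 stands alone on the right at 1.74 and Igfbp1 on the left at -2.05, and the blue intervals of Pck1, Slc2a2 and Ldha are narrower than the black ones.

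Pfkfb3 encodes a bifunctional enzyme whose kinase activity makes fructose 2,6-bisphosphate, the activator of the main control step of glycolysis. Animals are listed here and below by slide, slide 1 first. In controls the log2 ratio of liver over reference was -1.28, -0.30, -0.36, 0.04 and -0.66. At 6.25 mg/kg it was 1.19, 0.23, 0.76, -1.12 and -0.51. At 12.5 mg/kg it was 1.68, -0.05, 0.41 and 1.70, and at 25 mg/kg 1.36, 1.06, 1.19, 2.13 and 0.42. The 25 mg/kg group lay wholly above the controls, while the lower doses overlapped them. Pfkfb3 was the only 1 of the 13 probes whose groups did not overlap at 25 mg/kg, and 1.01% of all probes lay wholly above the controls in that comparison.

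The mean of Pfkfb3 was -0.51 ± 0.49 in controls, 0.11 ± 0.93 at 6.25 mg/kg, 0.93 ± 0.89 at 12.5 mg/kg and 1.23 ± 0.62 at 25 mg/kg (SD, n = 5, 5, 4 and 5). The log2 change at 25 mg/kg was 1.74 ± 0.43 (SE), a 3.35-fold higher level, with limma adjusted p = 0.168. Its unadjusted p of 0.00067 ranked 117 among 29415 probes. With the slide block the change was 1.84 ± 0.43 and limma's adjusted p = 0.0507, just short of the threshold. The difference was 2.15 on slide 1, 1.29 on slide 2 and 1.93 on slide 3, where slide 1 had 1 animal at 25 mg/kg and slide 3 had 1 control. Leaving out 1 array at a time, in the fit with the block, gave adjusted p-values from 0.0298 to 0.134 in limma. The value was under 0.05 without replicate 1, 4 or 5 at 6.25 mg/kg, replicate 1 or 2 at 12.5 mg/kg, or replicate 2 at 25 mg/kg, at 0.0411, 0.0462, 0.0478, 0.0298, 0.0463 and 0.045 in that order. Without the block the same range was 0.0915 to 0.533.

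Pfkfb3 also had the steepest positive slope on dose among the 13 probes, 0.07 ± 0.02 log2 units per mg/kg. Limma's adjusted p was 0.154, and 0.0622 with the block. Of all probes 0.0204% passed the trend without the block and 0.241% with it. The slopes of Pfkfb3 and Igfbp1 were the 2 of 13 with an unadjusted p under 0.05, against 5.87% of all probes. Dose group held 52.2% of the variance of Pfkfb3 over the 19 arrays and slide 0.637%, the smallest slide share among the 13 probes. Probe 2 of the gene had group means of -0.23, -0.07, 0.15 and 0.08 at 0, 6.25, 12.5 and 25 mg/kg, with liver signal mostly below the detection limit. The 2 probes are annotated to different RefSeq transcripts of the gene. Which of the 2 start sites each probe reports is not given in the sources used here.

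Igfbp1, a secreted protein made by liver that binds insulin-like growth factors, was the most variable member. Its log2 ratio over the 19 livers ran from 3.15 to 8.54, a span of 5.39 log2 units. In controls it was 8.54, 6.73, 4.49, 6.37 and 5.94. At 6.25 mg/kg it was 4.00, 3.17, 5.69, 6.62 and 5.90. At 12.5 mg/kg it was 5.02, 6.26, 3.15 and 6.63, and at 25 mg/kg 4.85, 3.41, 3.89, 4.14 and 5.55. Of the 5 animals at 25 mg/kg 3 lay below the lowest control, and the other 2 lay within the control range. The lower doses each held animals from near the bottom of the whole range to above the control median of 6.37.

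The mean of Igfbp1 was 6.41 ± 1.46 in controls, 5.08 ± 1.43 at 6.25 mg/kg, 5.27 ± 1.57 at 12.5 mg/kg and 4.37 ± 0.84 at 25 mg/kg (SD). The change at 25 mg/kg was -2.05 ± 0.76 (SE), a 4.13-fold lower level, with limma adjusted p = 0.478. With the slide block it was -2.13 ± 0.67 (adjusted p = 0.141), and on slides 1, 2 and 3 it was -2.78, -1.78 and -1.09. Scanner-processed signals gave -1.42 at 25 mg/kg and median centring -1.65, both without the block. In the liver channel alone, an alternative added after the data were seen, the change was -1.90 ± 0.75 (limma adjusted p = 0.413). Leaving out 1 array at a time, without the block, moved it between -2.53 and -1.51. The changes at 6.25 mg/kg (-1.34 ± 0.76) and 12.5 mg/kg (-1.15 ± 0.81) had limma adjusted p-values of 0.918 and 0.999. From scanner-processed signals they were -0.47 and -0.565. With 1 array left out the change at 6.25 mg/kg reached -0.81 (without control replicate 4), and that at 12.5 mg/kg -0.44 (without 12.5 mg/kg replicate 3) and -0.62 (without control replicate 4).

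**Figure D2:**
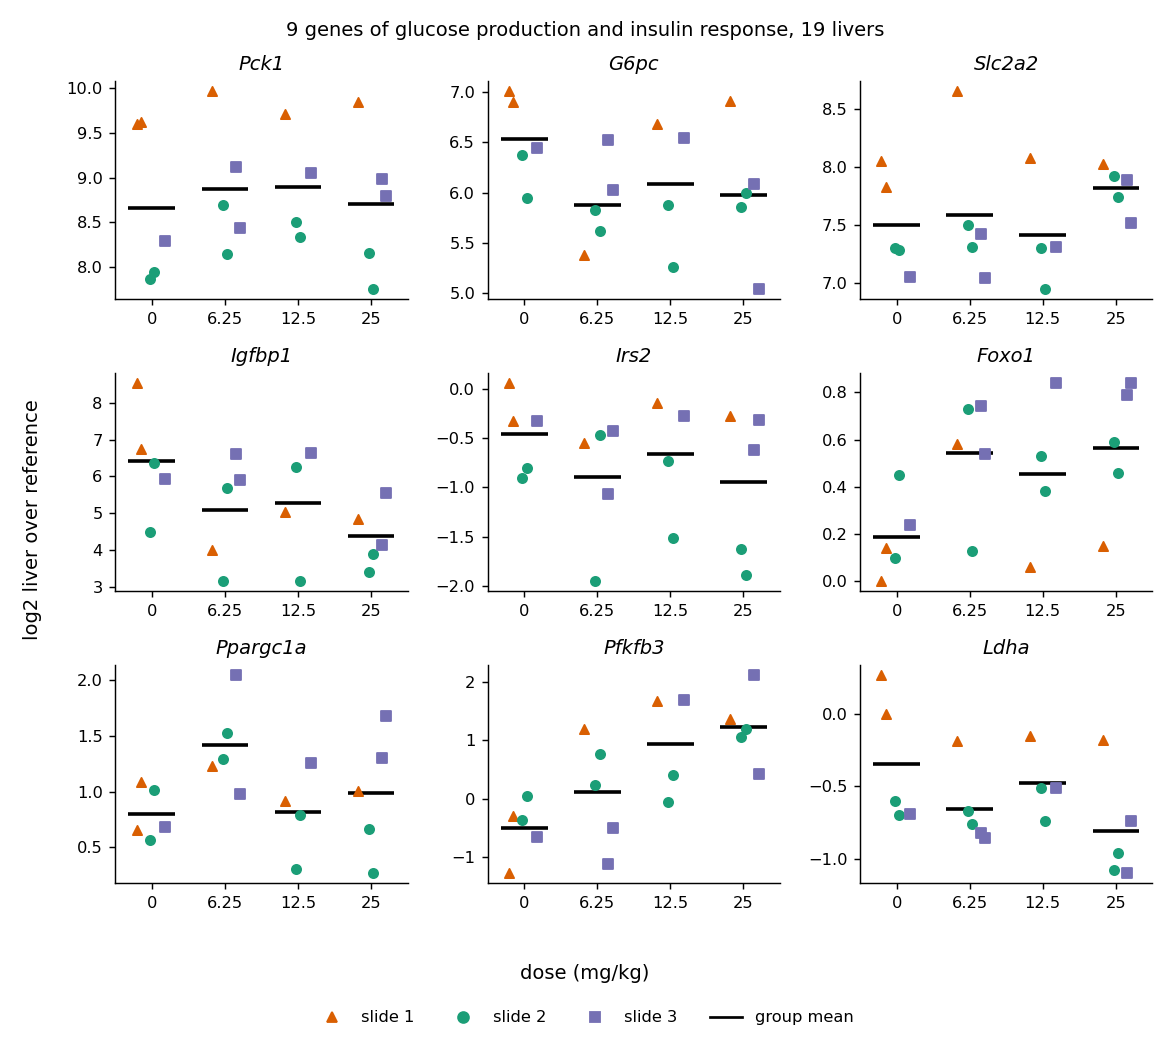
Log2 liver over reference (y axis, its own scale in each panel) against dose in mg/kg (x axis) for the 9 genes, by the brightest probe of each, with 1 point per animal. Shape and colour mark the slide and black bars the mean of each dose group. In Pfkfb3 the 5 points at 25 mg/kg sit above all control points, and in Pck1 and Ldha the slide 1 points sit above the rest at each dose.

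The enzymes of glucose output showed no member past the threshold. Pck1, the cytosolic enzyme that turns oxaloacetate into phosphoenolpyruvate, was 9.60, 9.62, 7.87, 7.94 and 8.29 in controls. It was 9.97, 8.70, 8.15, 9.12 and 8.44 at 6.25 mg/kg and 9.71, 8.50, 8.34 and 9.05 at 12.5 mg/kg. At 25 mg/kg it was 9.85, 8.16, 7.75, 8.98 and 8.79. All dose groups spanned nearly the same range. The 5 arrays of slide 1 lay between 9.60 and 9.97, above the other 14 arrays, and slide held 84.2% of the variance of Pck1 against 2.17% for dose. The change at 25 mg/kg was 0.05 (95% interval -0.88 to 0.97), and 0.25 (-0.06 to 0.57) with the block. With the block its log2 change was 0.42 ± 0.15 at 6.25 mg/kg and 0.45 ± 0.16 at 12.5 mg/kg, with limma adjusted p-values of 0.289 and 0.375. Without the block these were 0.21 (0.968) and 0.24 (0.999).

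G6pc, the catalytic subunit that frees glucose from glucose 6-phosphate, had lower means at every dose than in controls. It was 7.01, 6.90, 6.37, 5.95 and 6.44 in controls and 5.38, 5.83, 5.62, 6.52 and 6.03 at 6.25 mg/kg. It was 6.68, 5.88, 5.26 and 6.54 at 12.5 mg/kg and 6.91, 5.86, 6.00, 6.09 and 5.04 at 25 mg/kg. Each dose group overlapped the controls. The change was -0.66 ± 0.32 at 6.25 mg/kg, -0.45 ± 0.34 at 12.5 mg/kg and -0.56 ± 0.32 at 25 mg/kg, with limma adjusted p-values of 0.891, 0.999 and 0.762. With the block it was -0.59, -0.36 and -0.49. On slides 1, 2 and 3 the difference was -1.57, -0.435 and -0.16 at 6.25 mg/kg. It was -0.27, -0.59 and 0.09 at 12.5 mg/kg and -0.04, -0.24 and -0.88 at 25 mg/kg. With 1 array left out, without the block, the change reached -0.53, -0.17 and -0.32 at 6.25, 12.5 and 25 mg/kg. In the liver channel alone the change at 25 mg/kg was -1.19 ± 0.51, and over all other settings it ran from -1.19 to -0.16.

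Slc2a2 encodes GLUT2, the glucose transporter of the hepatocyte surface. It was 8.05, 7.83, 7.30, 7.28 and 7.05 in controls and 8.66, 7.50, 7.31, 7.42 and 7.04 at 6.25 mg/kg. It was 8.08, 7.30, 6.94 and 7.31 at 12.5 mg/kg and 8.03, 7.92, 7.74, 7.89 and 7.52 at 25 mg/kg. All 5 animals at 25 mg/kg lay within the range of the controls, with an SD of 0.20 against 0.42 in controls. Slide held 56.6% of the variance of Slc2a2, and the controls at 8.05 and 7.83 were both on slide 1. On slides 2 and 3 each animal at 25 mg/kg lay above every control of its own slide. On slide 1 the 25 mg/kg animal lay between the controls. With the mean of each slide subtracted, values ran from -0.32 to -0.08 in controls and from -0.10 to 0.52 at 25 mg/kg. The change at 25 mg/kg was 0.31 ± 0.27 (limma adjusted p = 0.855) and, with the block, 0.49 ± 0.15 (0.126). On slides 1, 2 and 3 it was 0.09, 0.54 and 0.65. In the liver channel alone it was 0.46 ± 0.13 (limma adjusted p = 0.158). Scanner-processed signals gave 1.02 and median centring 0.55.

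Foxo1 encodes the forkhead factor through which insulin restrains glucose output. On its brightest probe it was 0.00, 0.14, 0.10, 0.45 and 0.24 in controls and 0.58, 0.73, 0.13, 0.74 and 0.54 at 6.25 mg/kg. It was 0.06, 0.53, 0.38 and 0.84 at 12.5 mg/kg and 0.15, 0.59, 0.46, 0.79 and 0.84 at 25 mg/kg. On this probe 4 of 5 animals at 25 mg/kg and at 6.25 mg/kg lay above the highest control. On probe 2 only 2 of 5 did at 25 mg/kg and 3 of 5 at 6.25 mg/kg. Slide held 43.8% of the variance of probe 1 and 8.73% of that of probe 2. The change of probe 1 was 0.36 ± 0.16 at 6.25 mg/kg, 0.27 ± 0.17 at 12.5 mg/kg and 0.38 ± 0.16 at 25 mg/kg (limma adjusted p = 0.878, 0.999 and 0.569). Probe 2 had 0.40, 0.14 and 0.30 at the same doses, so the probes did not differ in sign. For probe 1 the slide block gave 0.28, 0.23 and 0.30 at 6.25, 12.5 and 25 mg/kg. Median centring gave 0.56, 0.10 and 0.70, and probe 2 then had -0.01 at 12.5 mg/kg.

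Ppargc1a encodes the coactivator PGC-1 alpha, which works with FOXO1 and HNF4A on gluconeogenic genes. It stood highest at the lowest dose. Probe 1 was 0.66, 1.09, 0.57, 1.02 and 0.68 in controls and 1.23, 1.29, 1.53, 2.05 and 0.98 at 6.25 mg/kg. It was 0.92, 0.31, 0.79 and 1.26 at 12.5 mg/kg and 1.01, 0.67, 0.27, 1.30 and 1.68 at 25 mg/kg. At 6.25 mg/kg 4 of 5 animals lay above the highest control. The change was 0.61 ± 0.24 at 6.25 mg/kg (limma adjusted p = 0.878), 0.02 ± 0.26 at 12.5 mg/kg and 0.18 ± 0.24 at 25 mg/kg. Probe 2 had 0.47 ± 0.13 at 6.25 mg/kg, the smallest unadjusted p of the 13 probes at that dose (0.00227, limma adjusted p = 0.808, with the block 0.229). Its liver signal cleared background in 4 of 5 animals at 6.25 mg/kg and in 1 of 5 controls. This change was 1.75 from scanner-processed signals and 0.36 with median centring.

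Irs2, the adaptor that carries the insulin signal from its receptor in liver, was lower on average at each dose. It was 0.06, -0.33, -0.90, -0.80 and -0.33 in controls and -0.55, -1.95, -0.47, -1.07 and -0.43 at 6.25 mg/kg. It was -0.14, -0.73, -1.51 and -0.28 at 12.5 mg/kg and -0.28, -1.62, -1.89, -0.62 and -0.32 at 25 mg/kg. The lowest animal of every group was on slide 2, and every dose group overlapped the controls. The change was -0.43 ± 0.35, -0.21 ± 0.38 and -0.48 ± 0.35 at 6.25, 12.5 and 25 mg/kg (limma adjusted p = 0.929, 0.999 and 0.834). At 25 mg/kg the blocked value was -0.46 ± 0.24 (0.392). With median centring the changes at 6.25 and 25 mg/kg were -0.21 and -0.14. Without 6.25 mg/kg replicate 3 the change at 6.25 mg/kg was -0.17. That at 25 mg/kg was -0.25 without 25 mg/kg replicate 4 and -0.32 without 25 mg/kg replicate 3.

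Ldha encodes the lactate dehydrogenase subunit that interconverts pyruvate and lactate. Its brightest probe was 0.27, 0.00, -0.60, -0.70 and -0.69 in controls and -0.19, -0.67, -0.76, -0.82 and -0.86 at 6.25 mg/kg. It was -0.15, -0.51, -0.74 and -0.51 at 12.5 mg/kg and -0.18, -1.08, -0.96, -1.10 and -0.74 at 25 mg/kg. On slides 2 and 3 all 4 animals at 25 mg/kg lay below every control of their own slide, and on slide 1 the 25 mg/kg animal lay below both controls. The change at 25 mg/kg was -0.47 ± 0.21 (limma adjusted p = 0.628) and, with the block, -0.33 ± 0.09 (0.102), with -0.32, -0.37 and -0.23 on slides 1, 2 and 3. Probes 2 and 3 had -0.29 ± 0.12 (limma adjusted p = 0.266) and -0.40 ± 0.12 (0.106) with the block, and -0.47 and -0.76 without it. Median centring in place of loess gave -0.00044 for probe 1, -0.06 for probe 2 and -0.42 for probe 3, without the block. Scanner-processed signals gave -0.21 for probe 1, -0.46 for probe 2 and -0.73 for probe 3. Slide held 76.5, 77.1 and 91.9% of the variance of probes 1, 2 and 3. Probe 3 ran from 0.28 to 0.89 on slide 1, and from -1.61 to -0.57 on the other slides.

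At 12.5 mg/kg the question was whether the middle dose moved the members as the highest did, and 0 of 13 passed in limma, as for 0% of all probes (0.0068% with the block). All dose comparisons share the same 5 controls. Pfkfb3 had the largest change, 1.44 ± 0.45, a 2.72-fold higher level (limma adjusted p = 0.946, with the block 1.50 and 0.298). It was 2.47 on slide 1, 0.34 on slide 2 and 2.36 on slide 3. Slides 1 and 3 each had 1 animal at this dose, and slide 3 had 1 control. Pfkfb3 alone had an unadjusted p under 0.05, against 4.21% of all probes, and with the block Pck1 joined it, against 9.5% of all probes. Of the 13 probes 6 were higher and 7 lower, with a median of -0.10, and 0 had groups that did not overlap. Over all probes 0.5% lay wholly above the controls and 0.962% wholly below.

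At 6.25 mg/kg 0 of 13 passed in limma, as for 0% of all probes with or without the block. The 4 probes with an unadjusted p under 0.05 were both of Foxo1 and both of Ppargc1a, against 5.57% of all probes. With the block 6 reached it, against 11.7% of all probes. They were Pck1, G6pc, Igfbp1, Foxo1 probe 1 and both probes of Ppargc1a. Pfkfb3 had 0.62 ± 0.43 (limma adjusted p = 0.926), but 1.98 on slide 1, 0.66 on slide 2 and -0.16 on slide 3. Igfbp1 likewise had -3.63, -1.0 and 0.32 on the 3 slides. In both genes the slide 1 animal at this dose stood with the 25 mg/kg group and the slide 3 animals with the controls. Over all probes 0.561% lay wholly above the controls and 0.408% wholly below, and 0 of the 13 did either. In the F test over all doses 0 of 13 passed in limma (smallest adjusted p = 0.577 for Pfkfb3, with the block 0.132), against 0.0102% of all probes and 0.0748% with the block.

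Across animals, Igfbp1 and Pfkfb3 ran opposite ways, as did other pairs. After each slide was centred on its mean, the Pearson correlation of the members over 19 arrays was lowest between Igfbp1 and Pfkfb3, at -0.60. Close to it were Slc2a2 and Ldha (-0.59), Pfkfb3 and Ldha (-0.55) and Foxo1 and Irs2 (-0.53). Once dose means were removed as well, these pairs had -0.40, -0.16, -0.39 and -0.40 in that order. Igfbp1 and Pfkfb3 also had the largest dose changes, of opposite sign, and the -0.60 includes them. Slide-centred values were highest between Igfbp1 and Ldha, at 0.70, followed by Pck1 and Foxo1 (0.69), Foxo1 and Slc2a2 (0.63) and Igfbp1 and Irs2 (0.62). With dose removed these 4 were 0.54, 0.62, 0.57 and 0.51. Pck1 and G6pc, which work in the same route, had -0.24, and 0.03 with dose removed. These are descriptions of 36 pairs over the same 19 arrays, which share slides, reference RNA and dose groups, and they carry no test.

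**Figure D3:**
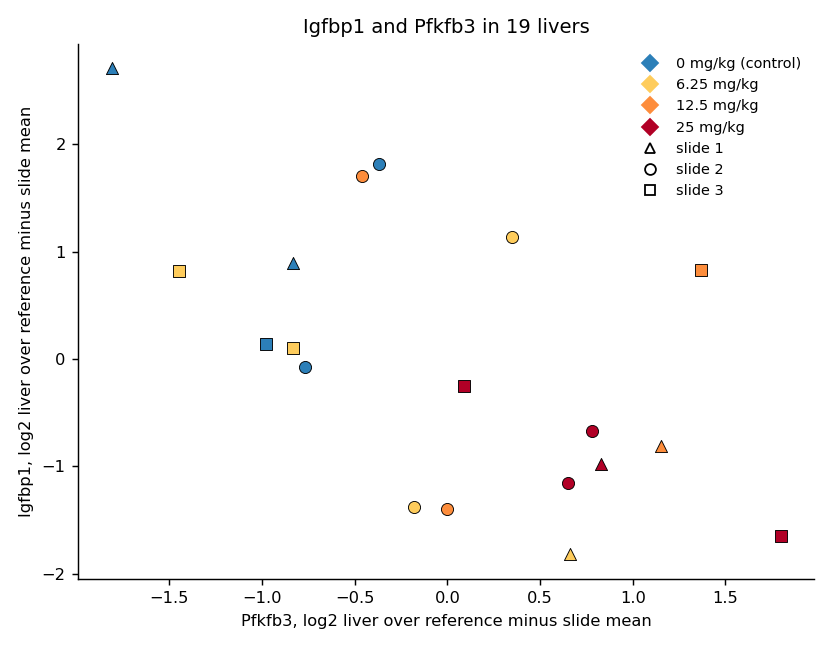
Igfbp1 (y axis) against Pfkfb3 (x axis) in 19 livers, each as log2 liver over reference minus the mean of its slide. Colour marks dose and shape marks slide. The 5 animals at 25 mg/kg sit at the lower right, and the controls sit at the left.

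**Figure D4:**
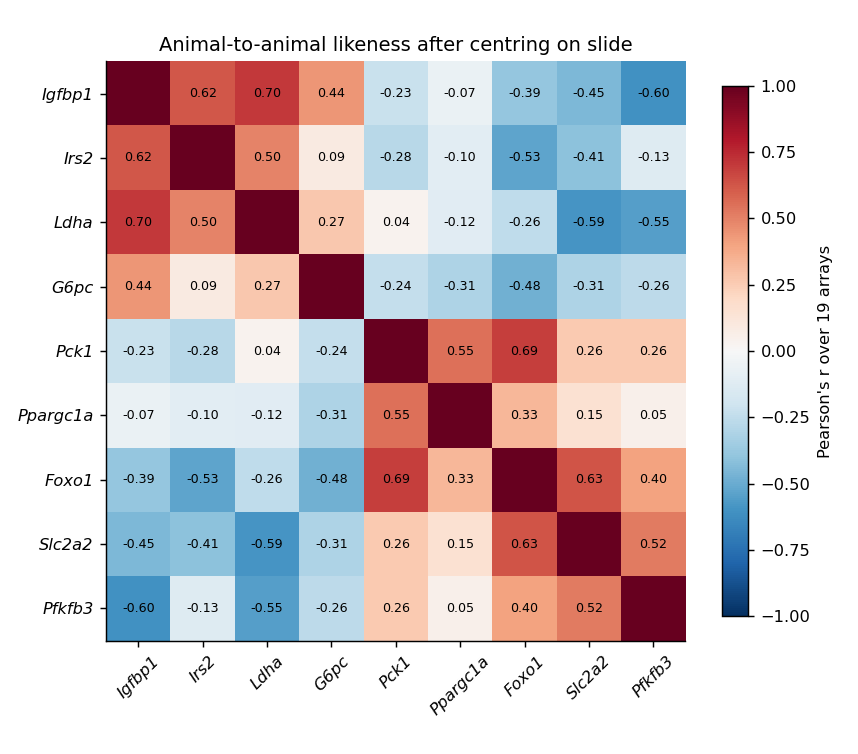
Pearson correlation between each pair of the 9 genes over 19 arrays after centring on slide, by the brightest probe of each gene. Red is positive and blue negative, on a scale from -1 to 1. Igfbp1, Irs2 and Ldha form 1 red block and Pck1, Ppargc1a, Foxo1 and Slc2a2 another, with the lowest value, -0.60, between Igfbp1 and Pfkfb3.

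Among 13533 other genes, those most like each member over the 19 slide-centred arrays were named by the same measure. For Pfkfb3 they were Nceh1 (0.92), a cholesterol ester hydrolase, Coq10b (0.90), a coenzyme Q binding protein, and Pik3r1 (0.90), the regulatory subunit of the kinase that insulin receptor substrates activate. Coq10b had a log2 change of 1.52 at 25 mg/kg (limma adjusted p = 0.0698, with the block 0.0194). For Igfbp1 they were Stk24 (0.89), a protein kinase, Ccng2 (0.86), a cyclin known as a FOXO target, and Bok (0.85), a BCL2 relative. Pck1 was nearest to Pcx (0.85), pyruvate carboxylase, which makes the oxaloacetate that Pck1 uses, followed by Sash1 and Zfp607a. G6pc was nearest to Nr0b2 (0.79), the nuclear receptor SHP, followed by Arl4d and Slc25a25. Foxo1 was nearest to Wipf3 (0.91), Ngef and Fnip2, and Ppargc1a to Sgms1 (0.84), Arhgap18 and Kif1b. Irs2 was nearest to S100a6 (0.83), Siah1b and Ift172, Slc2a2 to 2610306M01Rik (0.90), Plk5 and P2ry1, and Ldha to Atp11a (0.84), Nek2 and Gprc6a. Each is the top of 13533 values and is given as a description. Without centring on slide, the correlation was -0.19 for Pck1 and Zfp607a, -0.12 for Irs2 and Siah1b and -0.23 for Irs2 and Ift172. It was -0.44 for Slc2a2 and 2610306M01Rik and -0.49 for Ldha and Nek2. The others ran from 0.04 (Irs2 and S100a6) to 0.94 (Pck1 and Pcx). Dose means were not removed from these values.

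The rest of the pathway was read from 5 lists with 84 genes in all, the 9 members included, each gene by its brightest probe. All 84 were measured. At 25 mg/kg 49 were higher and 35 lower, while over all 13812 measured genes 6668 were higher and 7144 lower. The median log2 change of the 84 was 0.04, against -0.01 over all measured genes. With the block the median of the 84 was 0.10, against -0.004 over all measured genes. In limma 0 rose and 0 fell, and with the slide block 2 rose and 0 fell. Over all 13812 genes 6 rose and 1 fell without the block, and 82 rose and 53 fell with it. The 2 in the lists were Slc37a4, the transporter that brings glucose 6-phosphate to G6pc (0.59, adjusted p = 0.0444, without the block 0.48 and 0.473), and Pik3r1 (0.64, adjusted p = 0.0466, without the block 0.53 and 0.558). At 12.5 mg/kg 42 were higher and 42 lower and at 6.25 mg/kg 44 and 40, and none passed in limma with or without the block.

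Of 12 gluconeogenesis genes 9 were higher and 3 lower at 25 mg/kg, with a median of 0.06, and of 0.165 with the block. Besides Slc37a4, those of smallest p among non-members were Gpt, an alanine aminotransferase (0.17), the malate dehydrogenase Mdh1 (-0.13) and G6pc3 (0.07). Of 12 regulators 9 were higher and 3 lower, with a median of 0.10, and of 0.13 with the block. Cebpb, a factor that acts on gluconeogenic promoters, had 0.42 ± 0.23, the glucocorticoid receptor Nr3c1 0.24 ± 0.10, the kinase Sik1 0.19 ± 0.17 and the AKT-binding protein Trib3 -0.52 ± 0.41, and their limma adjusted p-values ran from 0.611 to 0.857.

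Of 27 genes of glycolysis and its control 11 were higher and 16 lower at 25 mg/kg, with a median of -0.04, and of 0.06 with the block. Pdk4, the kinase that shuts pyruvate dehydrogenase during fasting, had -1.28 ± 0.38 (limma adjusted p = 0.272, with the block -1.40 and 0.0668). It was -1.55, -0.95 and -1.49 on slides 1, 2 and 3, with -0.51 at 6.25 mg/kg and -1.28 at 12.5 mg/kg. Pklr, liver pyruvate kinase, had 0.73 ± 0.42 (limma adjusted p = 0.765, with the block 0.94 and 0.131), but -0.11 on slide 1 against 1.61 and 0.99 on slides 2 and 3. Pfkfb2, a relative of Pfkfb3, had 0.35 ± 0.22, and Pdk2 0.17 ± 0.12.

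Of 12 glycogen genes 8 were higher and 4 lower at 25 mg/kg, with a median of 0.08, and of 0.17 with the block. Ppp1r3c, which brings protein phosphatase 1 to glycogen, was the lowest of them, at -1.39 ± 0.43 (limma adjusted p = 0.318, with the block 0.131), and had -0.96 ± 0.43 at 6.25 mg/kg (0.879) and -1.80 ± 0.46 at 12.5 mg/kg (0.732). The branching enzyme Gbe1 had 0.34 ± 0.16 (limma adjusted p = 0.654) and Ugp2 0.30 ± 0.16 (0.728). Of 21 genes of insulin and IGF signalling 12 were higher and 9 lower, with a median of 0.06 with and without the block. Irs1, the other main insulin receptor substrate, had -0.47 ± 0.15 (limma adjusted p = 0.325, with the block -0.52 and 0.0818). It had 0.20 ± 0.15 at 6.25 mg/kg and -0.48 ± 0.16 at 12.5 mg/kg. The insulin receptor Insr had 0.29 ± 0.16 and the receptor-binding adaptor Grb10 -0.37 ± 0.26.

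**Figure D5:**
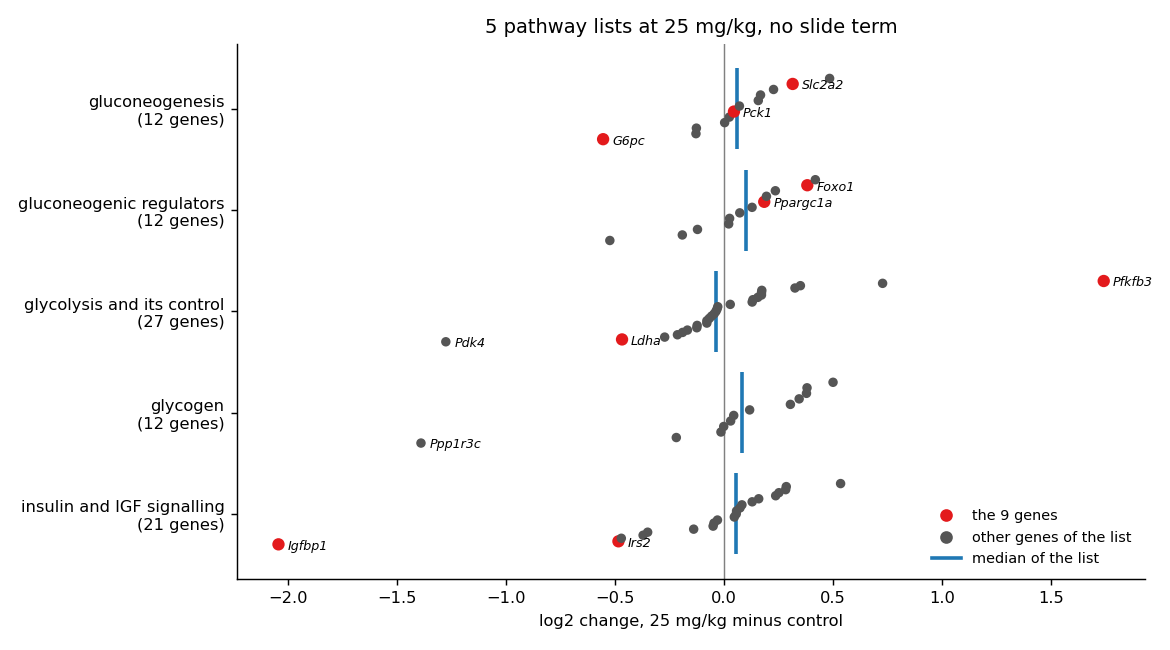
Log2 change at 25 mg/kg minus control (x axis) of the 84 genes of 5 pathway lists (rows), from the fit with no slide term. Red points are the 9 genes followed, grey points the other genes and blue bars the median of each list. The medians lie between -0.04 and 0.10, while Pfkfb3 lies at 1.74 and Igfbp1, Ppp1r3c and Pdk4 lie at -2.05, -1.39 and -1.28.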

How the data were processed

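Liver RNA of 19 mice was measured on 2-colour Agilent arrays against a reference RNA, without dye swap. Per the file headers, the scanner files hold the median intensity of each spot and its background from Feature Extraction 10.7.3.1. The deposited table holds log2 ratios of liver over reference, and how the authors made it is not given in the sources used here. It matched a loess log2 ratio computed here without background subtraction at a correlation of 0.993 to 0.996 per array.

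Background was corrected by normexp (offset 50) and arrays were normalised by loess in limma 3.58.1 under R 4.3.3. Outlier spots were set to missing (0.132% of kept values). Symbols came from RefSeq accessions, which named 26413 of 55681 probes. Group means were fitted with lmFit and eBayes over all 19 arrays, and the slope on dose in a separate fit. Tests were two-sided, with Benjamini-Hochberg adjustment over 29415 probes and a threshold of 0.05. The precision is limited by 4 or 5 animals per group.

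The members, lists and tests were chosen with earlier results of these data known. Named genes are the 9 members, per list the 4 non-members of smallest p at 25 mg/kg (1 is not reported here), and the 3 genes most correlated with each member. Other settings were slide as a fixed block, no background subtraction, median centring, the scanner software's processed signals, the deposited table, no filter on dim probes, the 2 groups compared alone, the liver channel alone and each array left out. The fit without the block was tested on simulated data that held no slide differences, so that test does not cover them.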

Additional observations from a re-analysis of the deposited data

Results flagged for a closer look

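Within the dose groups of 4 or 5 animals, the 13 measured probes gave 52 groups in which the highest or lowest animal was set against the nearest other one, and 3 stood out past the 95% limit of Dixon's test. Chance gives about 1 such group in 20. All 3 values came from slide 1, which held 1 animal of each treated group. Slide held 56.6% of the variance of Slc2a2, 76.5% of that of Ldha probe 1 and 91.9% of that of Ldha probe 3. The cause was not tested. Slc2a2 was 8.66 in replicate 5 at 6.25 mg/kg, with the next animal at 7.50. Ldha probe 1 was -0.19 in the same animal, with the next at -0.67. Ldha probe 3 was 0.58 in replicate 5 at 25 mg/kg, with the next at -1.07.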

How the results depend on the processing

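No paired analysis was possible because the replicate numbers only name the animals and the labels pair none across groups. No member passed under any of the 8 other settings that left out no array of the groups compared. The probes that passed over the whole array numbered 17 at 25 mg/kg, 3 in the F test, 6 in the dose trend and 0 at 12.5 and 6.25 mg/kg. With slide as a block they were 238 at 25 mg/kg, 2 at 12.5 mg/kg, 22 in the F test and 71 in the trend. Median centring gave 5 at 25 mg/kg, 0 in the F test and 1 in the trend, and no filter on dim probes 10, 0 and 2. The F test gave 0 without background subtraction, 0 from the deposited table and 9 from processed signals, which gave 2 in the trend. The groups compared alone gave 48 at 25 mg/kg and 6 at 12.5 mg/kg. The liver channel alone, added after the data were seen, gave 61 at 25 mg/kg, 10 in the F test and 13 in the trend. Leaving out each array gave 0 (without 25 mg/kg replicate 1) to 67 (without 6.25 mg/kg replicate 5) at 25 mg/kg, 0 to 5 at 12.5 mg/kg, 0 to 12 in the F test and 0 to 83 in the trend. With the block as well, which was also added, it gave 25 to 320 at 25 mg/kg, 0 to 15 at 12.5 mg/kg, 0 to 19 at 6.25 mg/kg, 0 to 102 in the F test and 4 to 263 in the trend.

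Member changes reversed sign in 12 cases under other settings and in 21 with an array left out, and the cause was not tested. Slc2a2 at 12.5 mg/kg was 0.0199 with the block and 0.0126 in the liver channel, and at 6.25 mg/kg -0.547 from processed signals and -0.03499 from the deposited table. Ppargc1a probe 1 at 12.5 mg/kg was -0.1052 with median centring and -0.02275 in the liver channel, and probe 2 -0.01126 in the liver channel. With median centring Foxo1 probe 2 at 12.5 mg/kg was -0.01286 and Ldha probe 1 at 6.25 mg/kg 0.08993. From processed signals Ldha probe 1 at 12.5 mg/kg was 0.06747, and Pck1 -0.02028 at 6.25 mg/kg and -0.1359 at 12.5 mg/kg. With an array left out, Slc2a2 ran from -0.1874 to 0.2175 at 6.25 mg/kg and from -0.3232 to 0.05719 at 12.5 mg/kg, and Pck1 from -0.05911 to 0.4534, -0.03552 to 0.4746 and -0.2413 to 0.286 at 6.25, 12.5 and 25 mg/kg. At 12.5 mg/kg Ppargc1a probe 1 ran from -0.1279 to 0.1862 and probe 2 from -0.01854 to 0.1306, Ldha probe 1 from -0.243 to 0.01935 and probe 3 from -0.6431 to 0.002363, and Irs2 from -0.3834 to 0.07516. The slope of Pfkfb3 with the block and an array left out ran from 0.06312 to 0.08048 (limma adjusted p = 0.03 to 0.223). Dim reference signal limits Igfbp1 and Slc2a2.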
